A study of Homo sapiens with 11 samples.

Results

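The AP-1 transcription factors considered here were 8 genes taken by name from the quantified transcriptome: the JUN family (JUN, JUNB and JUND), the FOS family (FOS, FOSB, FOSL1 and FOSL2) and ATF3. They were 8 of 61566 genes to which estimated read counts were summed, and all 8 of 8 were among the 17039 genes that passed the filter on low counts. SK-MEL-103, a human melanoma cell line, was taken into senescence with 1 of 2 drugs and compared with cells given the vehicle. Etoposide, which traps topoisomerase II on broken DNA, was used at 0.25 uM (4 samples). Tozasertib, an inhibitor of the Aurora kinases of mitosis, was used at 0.5 uM (3 samples, replicates 1, 2 and 4), and dimethyl sulfoxide (DMSO) was the vehicle (4 samples). All cells were collected on day 6, with fresh medium and drug on day 3, so both drugs had acted for the same time in the same line, at different doses.

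AP-1 is a family of dimers built from basic leucine zipper proteins. JUN proteins pair with each other or with FOS proteins, FOS proteins depend on a JUN partner, and the pairs bind the sequence TGACTCA, called the TRE. FOSL1 (FRA-1) and FOSL2 (FRA-2) lack the strong activation domain of FOS, so the partners present set what a dimer does, and ATF3 is a stress-induced relative that also binds the related site TGACGTCA, called the CRE. The FOS and JUN genes are textbook immediate early genes, switched on by MAP kinases within minutes of a stimulus, and AP-1 is known to occupy enhancers of senescent fibroblasts and to mark the dedifferentiated state of melanoma.

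The start regions of these genes are shown because 1 of 2 related motifs, of the CRE or TRE kind, sat at nearly the same place in members that moved in different ways. RefSeq windows (GRCh38.p14, 250 bases before to 50 after a start) were matched by symbol for 7 of 8 members, all but FOSL1. Capitals mark TGACG, the shared core of the CRE, and TGACATCA, the TRE-like variant, and each stretch runs from 150 bases before the RefSeq start up to any transcript start listed within them. The transcript FOSL2-204, with no defined coding sequence, starts farther upstream, at position 28392448. The stretches are JUN at chr1:58784049-58784197 on the minus strand, FOS at chr14:75278678-75278825, FOSB at chr19:45467846-45467994 and FOSL2 at chr2:28392708-28392801, the last 3 on the plus strand, all written 5′ to 3′ along the gene.
JUN: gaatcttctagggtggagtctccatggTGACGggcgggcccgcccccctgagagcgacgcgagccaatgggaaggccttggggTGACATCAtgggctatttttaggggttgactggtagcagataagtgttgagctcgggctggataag
FOS: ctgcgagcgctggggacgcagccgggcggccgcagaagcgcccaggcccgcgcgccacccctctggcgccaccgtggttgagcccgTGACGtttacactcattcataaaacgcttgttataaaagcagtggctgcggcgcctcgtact
FOSB: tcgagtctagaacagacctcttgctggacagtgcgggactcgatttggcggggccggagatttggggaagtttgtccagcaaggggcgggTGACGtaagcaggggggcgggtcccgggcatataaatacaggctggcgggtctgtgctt
FOSL2: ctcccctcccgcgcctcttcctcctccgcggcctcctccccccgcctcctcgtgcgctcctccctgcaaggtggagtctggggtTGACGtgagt
Counted back from the RefSeq start, the motif began 67 bases before JUN (TGACATCA), 64 before FOS, 60 before FOSB and 66 before FOSL2 (TGACG). The FOSL2 distance holds for the RefSeq start. Transcript FOSL2-202, with 21.6 to 29.4% of FOSL2 TPM over the group means, starts 56 bases farther upstream, just after the motif. A search of both strands of 35116 windows found TGACG in 24.6% and TGACATCA in 2.61%. The stretch from 70 to 56 bases before the start, chosen after these positions were seen, held the beginning of TGACG on the gene's strand in 1.38% of windows and of TGACATCA in 0.191%. JUN had a second match, TGACG, 123 bases before its start, and FOSL2 had one on the other strand 201 bases before its start. JUNB had TGACG 137 bases before its start, and JUND had it on the other strand 86 bases before its start and within a full CRE 200 bases before it (CRE in 1.85% of windows, each holding TGACG on both strands). FOSL2 had a TRE at bases 5 to 11 after its start (4.95% of windows). The sequence CCAAT was found in JUN, JUNB and JUND (34.6% of windows), and TATAAA in JUNB, FOS and FOSB (11.5%), whereas the CArG box, the site of serum response factor, was found in none of these 6 windows (1.29% of windows). Sites more than 250 bases before a start were not searched, so a CArG box farther upstream would have been missed. Transcripts that began within 10 bases of these starts carried 100% of JUN and JUNB TPM, 97.2 to 99.8% of JUND, 93.1 to 95% of FOS, 69.5 to 75.8% of FOSL2 and 52.2 to 54.3% of FOSB over the group means. The 2 ATF3 windows began at starts that carried 0% and 4.61 to 7.91% of its TPM, so they are not shown.

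The libraries held 28547842 to 40170233 estimated reads with etoposide, 27882689 to 56534763 with tozasertib and 28863009 to 32957818 with DMSO. The check genes followed the labels: CDKN1A, the p21 cell cycle inhibitor, averaged 1406 CPM with etoposide, 1498 CPM with tozasertib and 458 CPM with DMSO, and MKI67, a marker of dividing cells, averaged 46.1, 28.6 and 215 CPM (reads per gene scaled to library size, after TMM scaling). The melanocyte lineage factor SOX10 averaged 323, 379 and 514 CPM in the same order of groups, and PAX3 18.8, 24.9 and 29.2 CPM. Other markers of that list went the other way: MITF averaged 9.44, 9.245 and 7.68 CPM, and S100B 2.18, 3.31 and 1.175 CPM. The pigment gene PMEL averaged 0.404, 3.85 and 0.325 CPM, and DCT 0.116, 0.316 and 0.0915 CPM. MLANA was at 0 in all 11 samples and TYR and TYRP1 stayed at or under 0.0622 CPM, so these last pigment genes were at or near 0 in a line labelled melanoma. Of 6 fibroblast markers 3 were under 1 CPM in each group, and their summed level was 154 to 170.1, 134.5 to 140 and 49.0 to 57.7 CPM. LUM (106, 102 and 23.1 CPM) and COL1A1 (36.1, 18.8 and 3.64 CPM) were higher with the drugs, TWIST2 (17.5, 16.3 and 25.5 CPM) was lower, and COL3A1, DCN and PDGFRA did not exceed 0.767 CPM in any sample. Of 6 immune markers 5 were under 1 CPM in each group, among them PTPRC and CD3E, which did not exceed 0.244 CPM in any sample. Their summed level was 34.8 to 42.2, 43.3 to 48.3 and 55.9 to 68.2 CPM, nearly all of it the lysosomal protein gene CD68 (39.1, 44.8 and 62.7 CPM). Mitochondrial genes took 3.45 to 5.29%, 3.79 to 4.77% and 2.08 to 3.74% of the reads with etoposide, tozasertib and DMSO. The part of the fibroblast and immune markers and of the mitochondrial share in the results for the members was not tested. DMSO 1 and DMSO 4 were the replicate pair that differed most over all genes, and each result for the members was also computed without both.

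Per transcript length, the family changed its make-up. In TPM (transcript abundance corrected for length and library size, which allows genes to be compared), the order with etoposide was JUND 267 ± 19.2, FOSL1 209 ± 5.94, FOSL2 162 ± 3.61, ATF3 102 ± 12.8, JUN 101 ± 3.60, FOS 50.6 ± 7.25, JUNB 32.7 ± 4.69 and FOSB 20.8 ± 6.44 (SD, n = 4). With tozasertib it was JUND 311 ± 16.6, FOSL1 281 ± 11.04, FOSL2 145 ± 2.12, JUN 125 ± 6.03, ATF3 112 ± 14.5, FOS 60.6 ± 6.77, JUNB 46.6 ± 7.26 and FOSB 27.4 ± 5.34 (SD, n = 3). With DMSO it was FOSL1 335 ± 20.3, JUND 290 ± 43.6, JUN 134 ± 14.7, FOS 46.5 ± 7.71, JUNB 44.6 ± 7.42, FOSL2 41.4 ± 7.24, ATF3 20.3 ± 4.75 and FOSB 10.2 ± 3.07 (SD, n = 4). Neighbours in these orders whose samples overlapped were ATF3 and JUN, and JUNB and FOSB, with etoposide, JUN and ATF3 with tozasertib, and FOSL1 and JUND, and FOS, JUNB and FOSL2, with DMSO. FOSL2 and ATF3, sixth and seventh in DMSO, stood above FOS and JUNB in every drug-treated sample.

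The summed TPM of the 8 genes was 945 ± 48.2 with etoposide, 1108 ± 56.5 with tozasertib and 922 ± 51.1 with DMSO (SD, n = 4, 3 and 4, here and below for shares). FOSL1 made up 22.1 ± 0.639% of it with etoposide, 25.3 ± 0.301% with tozasertib and 36.4 ± 2.81% with DMSO. FOSL2 made up 17.2 ± 1.17%, 13.1 ± 0.801% and 4.49 ± 0.730% in the same groups, and ATF3 10.8 ± 1.06%, 10.1 ± 0.884% and 2.19 ± 0.397%. The FOS family as a whole held 46.8 ± 1.19%, 46.4 ± 0.997% and 47.0 ± 3.87%, so its share lay within the spread of the DMSO samples. Within it the share of FOSL1 was lower and that of FOSL2 higher with both drugs. The summed TPM of the FOS family averaged 442, 514 and 433 in the same groups. Every tozasertib sample (491.8 to 525.1) lay above every DMSO sample (381.7 to 451.4), whereas etoposide samples (417.4 to 456.8) overlapped DMSO. The JUN family held 42.4 ± 0.563%, 43.56 ± 0.185% and 50.8 ± 3.95%. Its share in every drug-treated sample (41.6 to 42.9% with etoposide, 43.35 to 43.7% with tozasertib) lay below every DMSO sample (46.3 to 55.6%). The summed TPM of the JUN family averaged 400.5 with etoposide, 482.9 with tozasertib and 468.5 with DMSO. Both etoposide (363.8 to 419.1) and tozasertib samples (454.5 to 507.4) overlapped the DMSO samples (404.8 to 514.7). With tozasertib the lower share was therefore not a lower sum. There were 1.29 ± 0.0496 FOSL1 transcripts for each FOSL2 transcript with etoposide, 1.93 ± 0.0924 with tozasertib and 8.24 ± 1.21 with DMSO, and the 3 groups did not overlap (1.22 to 1.33, 1.83 to 2 and 7.08 to 9.86). These shares and sums are descriptions and were not tested. In bulk RNA, fewer cells that express a gene and less of its RNA per cell cannot be told apart.

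**Figure D1:**
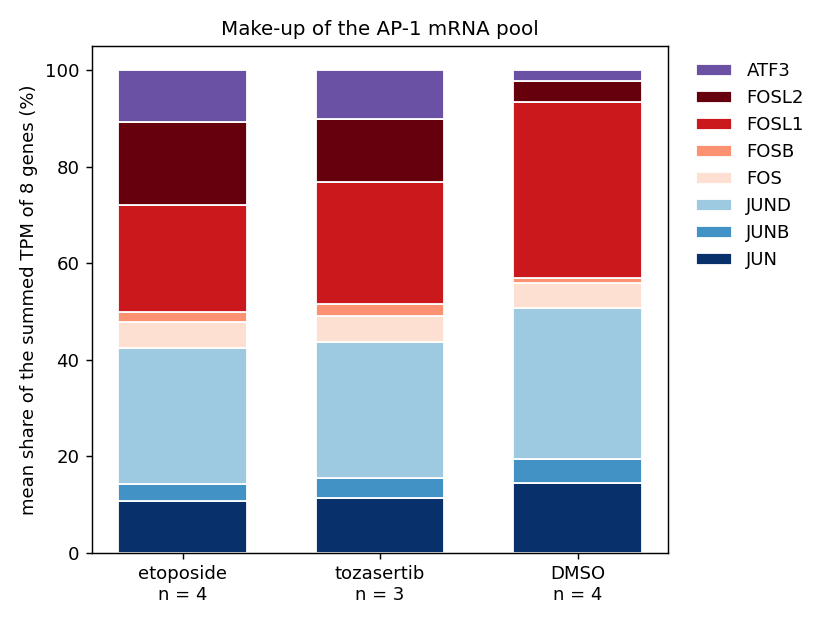
Mean share (%) of the summed TPM of the 8 AP-1 genes taken by each gene, in etoposide (n = 4), tozasertib (n = 3) and DMSO (n = 4) samples, with the JUN family in blue, the FOS family in red and ATF3 in purple. FOSL2 and ATF3 take 17.2% and 10.8% with etoposide, against 4.49% and 2.19% with DMSO, and FOSL1 takes 22.1%, against 36.4%.

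Against DMSO, etoposide raised FOSB, FOSL2 and ATF3 and lowered JUN, JUNB and FOSL1. That made 6 of 8 members called at an adjusted p under 0.05 (edgeR's quasi-likelihood test over all genes), 75% against 58.3% of all genes tested, with 3 higher (27.7% of all genes) and 3 lower (30.7%). The CPM of the same 6 members did not overlap between the groups, as for 51.2% of all genes. The median log2 fold change of all 8 was -0.14, beside -0.01 over all genes. These shares are near the background and are not a result about the family. FOSL2 and ATF3 rose by more than 2-fold, as did 10.15% of all genes.

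With tozasertib, FOSB, FOSL2 and ATF3 rose and JUN and FOSL1 fell against the same DMSO samples. The calls took in 5 of 8 members, 62.5% against 59.3% of all genes tested, with 3 higher (29.9% of all genes) and 2 lower (29.4%). The CPM of these 5 did not overlap between the groups, as for 59.8% of all genes, and the median log2 fold change of the 8 was 0.03, beside 0.02 over all genes. FOSB, FOSL2 and ATF3 rose by more than 2-fold, as did 12.21% of all genes. The DMSO samples serve both comparisons, so the drugs' results are not independent of each other.

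**Figure D2:**
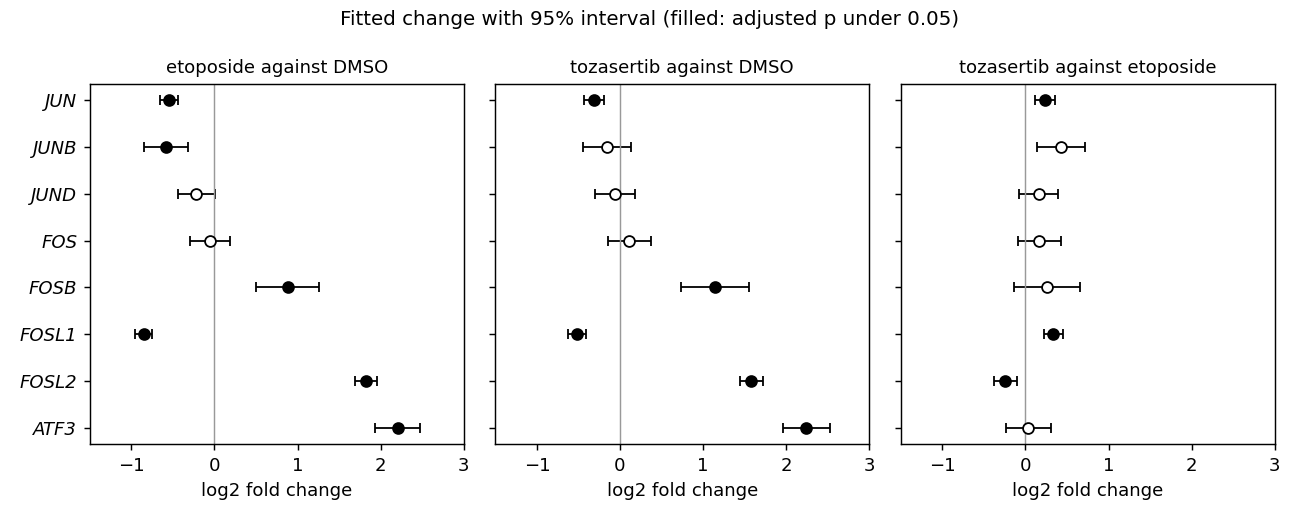
Fitted log2 fold change of each member with its approximate 95% interval, for etoposide against DMSO, tozasertib against DMSO and tozasertib against etoposide. Filled points have an adjusted p under 0.05. FOSL2 and ATF3 lie farthest to the right against DMSO (1.82 and 2.21 with etoposide, 1.58 and 2.24 with tozasertib), and all points lie between -0.24 and 0.43 in the drug against drug panel.

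ATF3 (chr1:212565334-212620777, plus strand), a stress-induced factor that represses as a homodimer and acts with JUN as a heterodimer, changed the most. It reached 107, 129, 99.8 and 98.3 CPM in etoposide samples 1 to 4, and 102, 128.5 and 103 CPM in tozasertib samples 1, 2 and 4, against 21.3, 29.8, 24.2 and 18.7 CPM in DMSO samples 1 to 4. Every drug-treated sample lay above every DMSO sample by more than the spread within any group. The increase was 4.62-fold with etoposide (log2 2.21, SE 0.14, adjusted p = 1.9e-08, edgeR) and 4.73-fold with tozasertib (log2 2.24, SE 0.14, adjusted p = 2.57e-08). The drugs overlapped for ATF3, with a log2 difference of 0.03 for tozasertib over etoposide (95% interval -0.24 to 0.31, adjusted p = 0.912). The canonical coding transcript ATF3-202, of 4 exons, held 79.3% of ATF3 TPM with etoposide, 74.0% with tozasertib and 74.9% with DMSO.

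FOSL2 (chr2:28392448-28417317, plus strand), which encodes FRA-2, rose with both drugs, and its drug-treated replicates differed little. Its level was 637, 638, 679 and 667 CPM in the etoposide samples and 537, 558 and 567 CPM in the tozasertib samples, against 160.4, 204, 187.5 and 189 CPM in the DMSO samples. The 3 groups did not overlap. The increase was 3.54-fold with etoposide (log2 1.82, SE 0.07, adjusted p = 1.97e-10) and 2.99-fold with tozasertib (log2 1.58, SE 0.07, adjusted p = 1.14e-09). Tozasertib samples were lower than etoposide samples by a log2 difference of -0.24 (SE 0.07), at an adjusted p of 0.0494, just inside the threshold. That last call held without DMSO 1 or DMSO 2 and was lost in the other 9 of the 11 fits that left out 1 sample, where the adjusted p was 0.0511 to 0.192. Its transcripts FOSL2-201 and FOSL2-202 start 56 bases apart and both encode protein. The overlapping FOSL2-AS1 (other strand) averaged 0.328, 0.285 and 0.049 CPM and ENSG00000270640 (same strand) 0.403, 0.663 and 0.205 CPM with etoposide, tozasertib and DMSO, far below FOSL2.

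FOSB (chr19:45467995-45475179, plus strand) codes for a FOS protein with a full and a shortened form. It measured 63.8, 47.6, 57.4 and 33.1 CPM with etoposide and 67.7, 62.1 and 52.0 CPM with tozasertib, against 18.9, 31.7, 26.9 and 32.5 CPM with DMSO. Etoposide 4 was the lowest drug-treated sample, barely above DMSO 4, and in TPM the same 2 samples crossed (12.7 in etoposide 4, 12.9 in DMSO 4). The increase was 1.84-fold with etoposide (log2 0.88, SE 0.20, adjusted p = 0.00173) and 2.2-fold with tozasertib (log2 1.14, SE 0.21, adjusted p = 0.000379), and the drugs did not separate (log2 0.26, 95% interval -0.14 to 0.66, adjusted p = 0.481). FOSB reads were spread over many transcripts in a way that varied between samples, so no split into forms was made. FOSB overlaps ERCC1 on the other strand, which fell (-0.80 and -0.64 on the log2 scale against DMSO, adjusted p = 4.76e-07 and 1e-05), opposite in direction to FOSB.

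FOSL1 (chr11:65892049-65900573, minus strand), which encodes FRA-1, fell where its relative FOSL2 rose. It stood at 209, 212, 223 and 202 CPM with etoposide and 264, 275.5 and 261 CPM with tozasertib, against 398, 374, 397 and 360.2 CPM with DMSO. Etoposide, tozasertib and DMSO samples formed 3 separate ranges in that order from low to high. FOSL1 was 1.81-fold lower with etoposide (log2 -0.85, SE 0.05, adjusted p = 1.84e-08) and 1.43-fold lower with tozasertib (log2 -0.52, SE 0.06, adjusted p = 5.36e-06). It was higher with tozasertib than with etoposide (log2 0.34, SE 0.06, adjusted p = 0.00192), and this was the only drug against drug difference among the members that passed the test in all 20 alternative fits.

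FOS (chr14:75278826-75282230, plus strand), the founding member, did not separate the groups. It measured 52.0, 61.2, 63.4 and 42.1 CPM with etoposide and 64.6, 64.4 and 55.1 CPM with tozasertib, against 57.5, 66.0, 54.4 and 49.3 CPM with DMSO. All 3 groups overlapped. Against DMSO its log2 difference was -0.06 with etoposide (95% interval -0.29 to 0.18, adjusted p = 0.721) and 0.11 with tozasertib (-0.15 to 0.37, adjusted p = 0.483). Tozasertib over etoposide gave 0.17 (-0.09 to 0.42, adjusted p = 0.482).

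**Figure D3:**
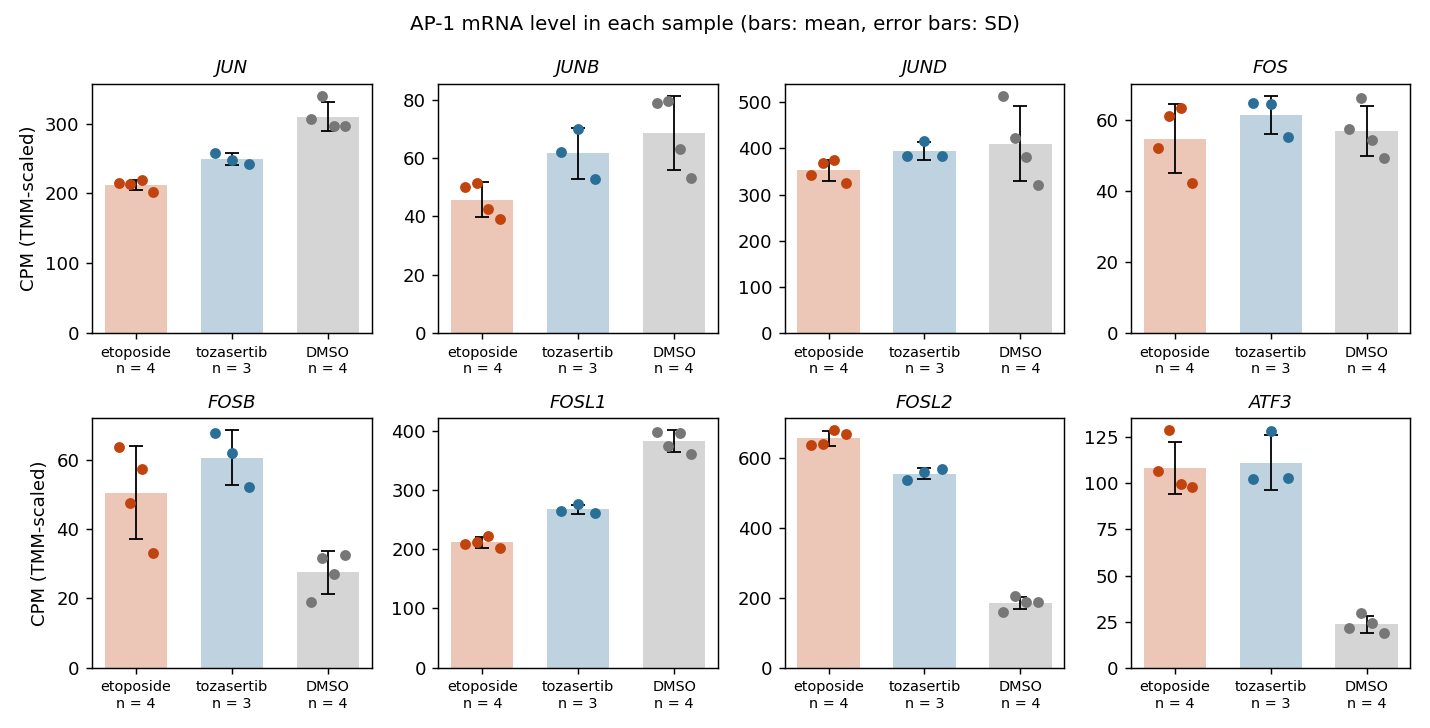
CPM (TMM-scaled) of each of the 8 AP-1 genes in each sample (points), with the mean (bar) and SD (error bar), for etoposide (n = 4), tozasertib (n = 3) and DMSO (n = 4). ATF3 and FOSL2 sit far above DMSO with both drugs, FOSL1 and JUN sit below it, and the points of FOS and JUND overlap between each drug and DMSO.

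JUN (chr1:58776845-58784048, minus strand), a partner in many AP-1 dimers, fell with both drugs by less than FOSL1. It measured 215, 213, 219 and 201 CPM with etoposide and 258, 247 and 242 CPM with tozasertib, against 306, 340.1, 296 and 296 CPM with DMSO. The 3 ranges were apart in CPM, although in TPM the tozasertib samples (119.5 to 131.5) reached into those of DMSO (116.5 to 152). JUN was 1.46-fold lower with etoposide (log2 -0.55, SE 0.06, adjusted p = 2.59e-06) and 1.24-fold lower with tozasertib (log2 -0.31, SE 0.06, adjusted p = 0.000714). It was higher with tozasertib than with etoposide (log2 0.23, SE 0.06, adjusted p = 0.0264), a call lost without etoposide 2 (adjusted p = 0.0622), etoposide 4 (0.0885), tozasertib 1 (0.147), tozasertib 2 (0.0893) or tozasertib 4 (0.0564).

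JUNB (chr19:12791486-12793315, plus strand), which often opposes JUN at growth genes, fell with etoposide. It measured 49.98, 51.4, 42.7 and 39 CPM with etoposide and 62.2, 69.95 and 52.7 CPM with tozasertib, against 78.8, 79.5, 63.2 and 53.0 CPM with DMSO. Etoposide samples lay below all the others in CPM, although in TPM etoposide 1 and 2 (36.7) stood above DMSO 4 (36.2). Tozasertib and DMSO samples overlapped, with tozasertib 4 just below DMSO 4. JUNB was 1.5-fold lower with etoposide (log2 -0.58, SE 0.14, adjusted p = 0.00233) and its log2 difference with tozasertib was -0.16 (95% interval -0.44 to 0.13, adjusted p = 0.371). Tozasertib over etoposide gave 0.43 (95% interval 0.14 to 0.71, adjusted p = 0.0799), which passed the threshold without DMSO 1 (0.0390) or DMSO 4 (0.0331). HOOK2 overlaps JUNB on the other strand at 12.6, 13.9 and 10.3 CPM on average with etoposide, tozasertib and DMSO, and the strand setting of the counting is not given in the sources used here.

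JUND (chr19:18279694-18281622, minus strand), the JUN protein that resting cells keep, had the highest TPM of the members in both drug groups and did not pass the test in any comparison. It measured 343, 368, 375 and 325 CPM with etoposide and 382.5, 416 and 384 CPM with tozasertib, against 515, 423, 381 and 321 CPM with DMSO. The DMSO samples spanned all the others, with DMSO 1 highest and DMSO 4 lowest of the 11. The log2 difference from DMSO was -0.22 with etoposide (95% interval -0.44 to 0.0027, adjusted p = 0.114) and -0.06 with tozasertib (-0.29 to 0.18, adjusted p = 0.703), and that between tozasertib and etoposide was 0.16 (-0.08 to 0.40, adjusted p = 0.46). Without DMSO 4 the etoposide difference became -0.32 at an adjusted p of 0.00859.

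Set directly against each other, the drugs gave a narrower range. Relative to etoposide, tozasertib samples were higher for JUN and FOSL1 and lower for FOSL2, 3 of 8 members called or 37.5%, beside 11.1% of all genes (5.67% higher, 5.45% lower). JUN, JUNB, JUND, FOSL1 and FOSL2, 5 of 8 members, did not overlap in CPM, as 31% of all genes did not. The median log2 difference of the 8 was 0.20, beside 0.01 over all genes, and none reached a 2-fold change. With length-scaled counts 1 member, FOSL1, was still called.

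The genes whose pattern over the 11 samples lay nearest to each member were found among 10805 protein-coding genes, by the root mean square difference of centred log2 CPM. For ATF3 they were LUM (0.164), a matrix proteoglycan, and TMEM255B (0.197), and for FOSL2 ARRDC4 (0.0804) and ADAMTS16 (0.0828). For FOSL1 it was SMYD5 (0.0575), for JUN they were CCNJL (0.0603) and ARHGEF2 (0.0656), and for FOSB GVQW3 (0.159) and SPTBN5 (0.206). JUNB lay nearest to ZFP36 (0.118), an mRNA decay factor and itself an immediate early gene, and SMIM19 (0.134). JUND lay nearest to ARL2 (0.0555) and CHMP2A (0.0704), and FOS to INF2 (0.132) and PPFIA3 (0.133). Within the family the nearest pair was JUN and FOSL1 (0.152), and FOSL2 and ATF3 were 0.326 apart.

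Among genes that feed into AP-1, the MAP kinases were mostly lower with both drugs. Of 21 MAP kinases and their effectors above AP-1, 15 fell and 0 rose with etoposide, and 14 fell and 1 rose with tozasertib (median log2 -0.38 and -0.45). Over all genes 30.7% fell and 27.7% rose with etoposide, and 29.4% fell and 29.9% rose with tozasertib. Tozasertib over etoposide, 5.67% were higher and 5.45% lower, and the counts of all lists here stand beside these shares. The count of 0 risen is edgeR's, and DESeq2 and an unadjusted p under 0.05 also gave 0. RPS6KA1, the RSK1 kinase that acts below ERK, averaged 15.6 ± 0.460 CPM with etoposide and 15.8 ± 0.563 with tozasertib, against 51.9 ± 2.12 with DMSO (log2 -1.73 and -1.72, adjusted p = 7.11e-11 and 1.82e-10), and RPS6KA3 (RSK2) fell likewise (log2 -1.57 and -1.33). Of 9 genes listed as serum response factor and its partners, 6 fell and 1 rose with etoposide, and 5 fell and 1 rose with tozasertib. Among those that fell were MEF2C (log2 -1.61 with etoposide and -0.99 with tozasertib) and ELK3 (-0.68 and -0.61). What each of them does at FOS was not tested. Of 7 regulators of JUN protein, 3 fell and 1 rose with each drug, and DET1, part of a ubiquitin ligase for JUN, was the gene that rose (log2 0.51 and 0.74). Between the drugs, tozasertib over etoposide, 2 MAP kinases, 2 genes of the serum response factor list and 0 regulators were higher and 0 of any of these lists were lower by edgeR. At an unadjusted p under 0.05, 0 regulators were higher, and among lower genes 1 of the serum response factor list and 0 of the other lists passed, as with DESeq2.

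Relatives that can pair with AP-1 proteins or share their sites moved in both directions. Of 11 BATF, JDP2, ATF2 and MAF factors tested, 3 rose and 3 fell with etoposide, and 6 rose and 2 fell with tozasertib. MAFF, a small MAF protein without an activation domain, averaged 8.69 ± 1.60 CPM with etoposide and 19.8 ± 1.94 with tozasertib, against 52.9 ± 3.44 with DMSO (log2 -2.60 and -1.42), and it was higher with tozasertib than with etoposide (1.18, adjusted p = 3.3e-05). BATF2 rose with tozasertib (12.9 ± 1.88 CPM, against 2.28 ± 0.707 with DMSO, adjusted p = 6.24e-07) and was higher with tozasertib than with etoposide (log2 2.28, adjusted p = 1.88e-05). Of 12 CREB, C/EBP and ATF4 factors tested, 2 rose and 9 fell with etoposide and 2 rose and 6 fell with tozasertib. ATF4, the activator of ATF3 in the integrated stress response, was among those that fell (192 ± 1.75 CPM with etoposide and 217 ± 4.04 with tozasertib, against 311 ± 21.9 with DMSO), the opposite direction to ATF3. These are mRNA levels, ATF4 protein was not measured here, and a link between ATF4 and ATF3 was not tested. Between the drugs 3 and 2 genes of these lists were higher with tozasertib, and 0 were lower by edgeR, by DESeq2 or at an unadjusted p under 0.05.

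Of 25 other immediate early genes tested, 9 rose and 14 fell with etoposide (92% called, beside 58.3% of all genes, median log2 -0.35), and 9 rose and 9 fell with tozasertib (72%, beside 59.3%, median -0.11). BTG2, also a p53 target, rose most clearly, to 74.6 ± 4.21 CPM with etoposide and 80.3 ± 5.85 with tozasertib, against 16.9 ± 1.22 with DMSO (log2 2.14 and 2.25). NR4A1, a nuclear receptor induced within minutes of stimulation, fell with both drugs (log2 -2.44 with etoposide and -1.64 with tozasertib), as did PHLDA1 (-1.38 and -0.95), an ERK-responsive gene. Tozasertib over etoposide, 4 were higher (NR4A1, NR4A3, KLF6 and PHLDA1) and 0 lower by edgeR, with 1 lower at an unadjusted p under 0.05 and 0 by DESeq2.

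Textbook targets of AP-1 were as divided. Of 28 listed, 23 were tested, and 9 rose and 10 fell with etoposide, 9 rose and 7 fell with tozasertib, with medians of -0.08 and -0.05. HMGA1, an architectural DNA-binding protein, fell to 243 ± 14.6 CPM with etoposide and 276 ± 12.4 CPM with tozasertib, against 2954 ± 165 with DMSO (log2 -3.61 and -3.42). The chemokine gene CCL2 (log2 2.77 with etoposide and 2.43 with tozasertib) and CCND1, cyclin D1 (0.88 and 0.93), rose with both drugs. Between the drugs, 5 were higher with tozasertib (CXCL8, AREG, IL6, SPP1 and HMOX1) and 5 lower (among them IL11, TGFB1, GJA1 and EDN1). That was 43.5% of the 23 targets called, beside 11.1% of all genes tested.

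**Figure D4:**
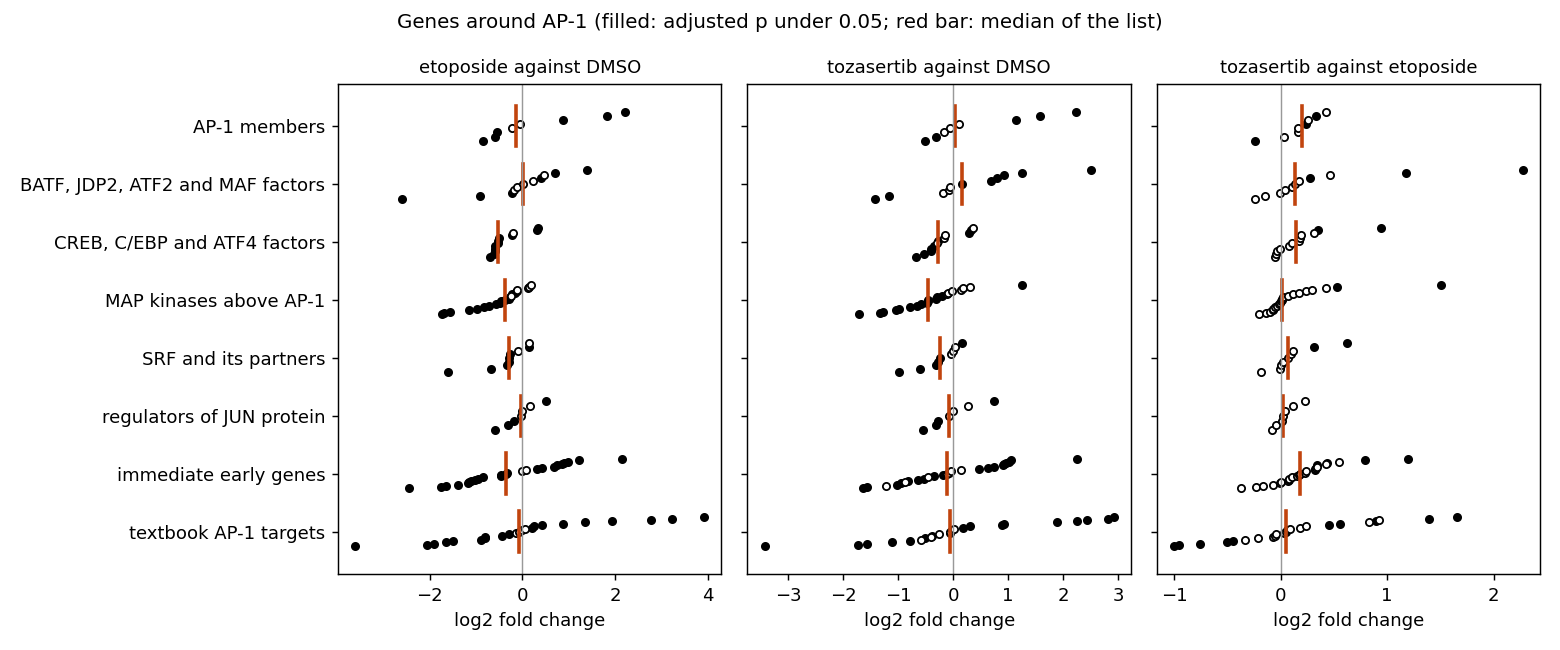
Log2 fold change of each tested gene (points) in the AP-1 family and the 7 lists around it, for etoposide against DMSO, tozasertib against DMSO and tozasertib against etoposide, with the median of each list as a red bar. Filled points have an adjusted p under 0.05. The MAP kinase medians lie at -0.38 and -0.45 against DMSO, and the AP-1 members spread from -0.85 to 2.21 with etoposide.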

How the data were processed

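RNA from SK-MEL-103 cells was sequenced from poly(A)-selected, directional libraries. Per the submitters' processing notes, the authors used cutadapt 4.7, Salmon 1.9.0, R 4.4.2 and DESeq2 1.40.2 with GRCh38. The study's methods name STAR as aligner, whereas the deposited files have Salmon's layout. The authors had deposited, per transcript, the estimated counts and TPM that Salmon gives, with an effective length. Transcripts (99.83% matched, unmatched ones holding 0.136 to 0.163% of reads) were assigned to GENCODE 44 genes, and estimated counts were summed and rounded.

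edgeR 4.0.16 in R 4.3.3 (limma 3.58.1) was run on all 11 samples with TMM scaling, filterByExpr and the quasi-likelihood F test, two-sided, with 1 mean per group. P-values were adjusted by Benjamini-Hochberg over 17039 genes, with calls at an adjusted p under 0.05. CPM and TPM were averaged per group with SD, and a fold change is 2 to the power of the fitted log2 value. SEs were derived from the F statistic. The 95% intervals use these SEs with a normal approximation, so they are approximate and narrower than the F test implies with so few samples. The script was tested on simulated data. Alternatives included other scalings, DESeq2 1.42.0 (Wald test), no filter, length-scaled counts, a replicate block and leaving out each sample. The sources do not say whether replicates were cultured separately. The p-values therefore reflect only how far these samples scatter, and that scatter may be technical. Replicates differed by more than sampling noise (chi-square per gene 4.12 to 77.0).

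The 8 members and the lists (relatives in 2 lists, MAP kinases, serum response factor and partners, regulators of JUN protein, immediate early genes, textbook targets) were chosen with earlier results of these data known. Other genes were named by rule: up to 3 per list and comparison with the smallest adjusted p among those called, each gene called in a direction that 5 or fewer of its list share, and the 2 protein-coding genes nearest to each member among genes of at least 5 CPM. A few genes that this rule or the marker lists name are not reported here. Tozasertib replicate 3 was not analysed here. Sequences are from RefSeq.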

Additional observations from a re-analysis of the deposited data

How the results depend on the processing

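Against DMSO, every member called with either drug kept its direction and its call in all 20 alternative fits, including the fit without DMSO 1 and DMSO 4, which was chosen after seeing the data. Leaving out 1 sample at a time gave 6 to 7 members and 9251 to 10299 genes called for etoposide, and 5 to 5 members and 8808 to 10423 genes for tozasertib. JUND with etoposide became a call with no filter (adjusted p = 0.0213), without DMSO 4 (0.00859) and without DMSO 1 and 4 (0.0252).

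Tozasertib against etoposide depended more on the processing, with 1895 genes and 3 members called. Only the 2 groups gave 3552 genes, length-scaled counts 1110 genes and 1 member, and the fit without DMSO 1 and 4 gave 3795 genes. Leaving out 1 sample gave 1036 genes (without tozasertib 1), 1075 (without tozasertib 2) to 3399 (without DMSO 1), and 1 to 4 members, with 1 member left without etoposide 2, etoposide 4 or any tozasertib sample. The cause was not tested. DESeq2's Wald test called 1035 genes higher and 1551 lower, beside 966 and 929 with edgeR. FOSL2 also lost its call with library size alone (adjusted p = 0.143), length-scaled counts (0.0789) and protein-coding transcripts alone (0.0687), and JUN with no filter (0.0607) and length-scaled counts (0.0851). JUNB gained one with no filter (0.000347), only the 2 groups (0.0201) and without DMSO 1 and 4 (0.0228).

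With the replicate block, 9858, 9806 and 1619 genes and 6, 6 and 3 members were called for etoposide against DMSO, tozasertib against DMSO and tozasertib against etoposide. JUNB then passed the threshold for tozasertib against DMSO (adjusted p = 0.0462) and against etoposide (0.00606), and FOSL2 did not for tozasertib against etoposide (0.065). Deviations from the group mean correlated at -0.0973 to 0.23 over 10 pairs of samples with the same number (median 0.032). Over 30 pairs with other numbers the range was -0.207 to 0.161 (median -0.021). Between etoposide and tozasertib the same-number pairs were all positive (0.23, 0.0911 and 0.12). The sources do not say whether the numbers mark shared days, and the main fit did not take them as pairs. JUNB, JUND, FOS and ATF3 lay above the group mean in sample 2 and below it in sample 4 of all 3 groups. The median of the other immediate early genes did the same, so a shared effect of the sample number on these genes is possible and was not tested. Depth was at least 27882689 reads per library.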
